A study of Mus musculus with 6 samples.

Results

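The small leucine-rich proteoglycans form a family of secreted matrix proteins, and 10 of their genes were followed here through the cells of the lower abdominal muscle (LAM): *Dcn*, *Bgn* and *Aspn* of class I, *Fmod*, *Lum*, *Prelp*, *Kera* and *Omd* of class II, and *Ogn* and *Epyc* of class III. They were taken by name, as members of the family, and all 10 were among the 16494 genes of the count table. The cells came from 6 male FVB/N mice aged 9 to 10 weeks. Of these, 3 were wild-type (WT) mice and 3 were Aromhum mice, which carry the human aromatase gene under its own promoters, turn androgen into estrogen in the muscle and develop scrotal hernia. Each mouse gave 1 library. Mice were handled as WT and Aromhum littermate pairs on separate dates per the study's methods, but which mice shared a date is not given in the sources used here. The muscle was minced, digested with collagenase and dispase, and passed through a fine filter that holds back multinucleated fibers, so the libraries sample the mononuclear cells of the tissue and few of its fibers.

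These proteins share a core of leucine-rich repeats, curved so that it can lie against a collagen fibril, and most carry chondroitin, dermatan or keratan sulfate chains or sulfated tyrosines. Decorin, the product of *Dcn*, and fibromodulin and lumican, the products of *Fmod* and *Lum*, bind collagen I and set the width and spacing of fibrils in tendon, skin and cornea. Decorin, biglycan and asporin also bind TGF-β, and free biglycan is recognized by Toll-like receptors on immune cells.

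The genes lie in clusters on the mouse genome (GRCm38, called mm10 by the deposited notes; GENCODE vM21 gene models). *Dcn* (chr10:97479609-97518143), *Lum* (chr10:97565128-97572703), *Kera* (chr10:97606879-97613692) and *Epyc* (chr10:97644068-97682454) follow one another on the plus strand of chromosome 10 with no other protein-coding gene between them. *Aspn* (chr13:49544443-49567565), *Omd* (chr13:49582462-49592822) and *Ogn* (chr13:49608046-49624501) are neighbors in the same way on the plus strand of chromosome 13. All 3 of those lie across *Cenpp*, a gene of the opposite strand that is also in the table. *Prelp* (chr1:133910304-133921414, minus strand) and *Fmod* (chr1:134037254-134048277, plus strand) are next to each other on chromosome 1, and *Bgn* (chrX:73483602-73495933, plus strand) stands alone. Between the neighbors of chromosome 10 the levels differed widely. *Dcn* was high in every fibroblast-like group, *Kera* was highest in tenocyte-like cells and *Epyc* in an unnamed fibroblast-like cluster of 1209 cells.

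RefSeq promoters of build GRCm38.p6, running from 250 bases before to 50 bases after the annotated start, matched 8 of the 10 genes, all but *Dcn* and *Lum*. The promoters of *Fmod* and *Kera* are shown because both genes were highest in tenocyte-like cells, that of *Prelp* because it is the neighbor of *Fmod*, and that of *Bgn* because its summed level differed between genotypes. Capitals mark GGTCA, the 5-letter core of an estrogen response element, on either strand, where it reads TGACC on the other. Of 32851 promoters of this length, 40.5% held at least 1 copy, and 0.07% held GGTCA and TGACC as a pair 3 bases apart, which none of the promoters of these genes held. In order, the regions are chr1:134037004-134037303 (plus strand), chr10:97606955-97607254 (plus strand), chr1:133921352-133921651 (minus strand) and chrX:73483351-73483650 (plus strand).
Fmod: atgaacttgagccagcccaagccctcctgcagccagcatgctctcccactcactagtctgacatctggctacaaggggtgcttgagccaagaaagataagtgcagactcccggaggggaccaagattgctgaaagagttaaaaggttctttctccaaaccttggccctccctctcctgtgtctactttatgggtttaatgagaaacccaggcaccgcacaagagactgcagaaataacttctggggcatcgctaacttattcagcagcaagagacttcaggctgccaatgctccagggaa
Kera: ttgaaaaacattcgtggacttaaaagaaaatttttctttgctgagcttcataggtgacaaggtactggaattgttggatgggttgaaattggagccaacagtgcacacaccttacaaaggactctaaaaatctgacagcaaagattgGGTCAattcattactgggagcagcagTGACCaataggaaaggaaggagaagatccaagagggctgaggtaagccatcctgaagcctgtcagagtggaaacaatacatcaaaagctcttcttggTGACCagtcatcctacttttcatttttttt
Prelp: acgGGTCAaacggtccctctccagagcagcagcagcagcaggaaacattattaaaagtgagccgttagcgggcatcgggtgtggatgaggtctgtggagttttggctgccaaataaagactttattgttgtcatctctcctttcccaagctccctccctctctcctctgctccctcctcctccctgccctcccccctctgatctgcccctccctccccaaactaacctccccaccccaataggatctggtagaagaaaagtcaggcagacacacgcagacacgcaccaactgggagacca
Bgn: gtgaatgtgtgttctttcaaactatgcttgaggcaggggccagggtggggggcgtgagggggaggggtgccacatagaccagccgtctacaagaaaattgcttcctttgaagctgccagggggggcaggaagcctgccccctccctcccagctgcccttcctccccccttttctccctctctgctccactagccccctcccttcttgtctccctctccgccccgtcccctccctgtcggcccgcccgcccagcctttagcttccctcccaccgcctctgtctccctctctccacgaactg
*Kera* held 3 copies and *Prelp* held 1, at the start of its window. *Omd* and 1 of the 2 *Epyc* entries also held 1 copy each, while *Fmod*, *Bgn*, *Aspn* and *Ogn* held none. *Aspn* instead held 2 separate copies of TATAAA, which 13.6% of the promoters held on either strand. *Ogn* held 1 stretch, TTTATAAA, that reads as TATAAA on both strands. These matches describe the letters of the windows only, and binding was not measured.

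The libraries held 64958237 to 111826460 unique molecular identifiers (UMIs, 1 per captured transcript), and 59227 of 63647 barcodes were kept with at least 200 genes and 1000 UMIs. Kept barcodes had median UMI counts of 5621 to 6412 in WT and 7057 to 9360.5 in Aromhum mice. Human *CYP19A1* had 770, 797 and 787 UMIs in the Aromhum libraries and 0 in WT. The median mitochondrial share was 3.99%, 6.13% and 4.32% in WT and 3.78%, 3.81% and 3.58% in Aromhum mice, so every WT mouse lay above every Aromhum mouse and WT replicate 2 was highest, and the part of this in the results that follow was not tested. Of 58824 barcode sequences, 402 (0.683%) occurred in more than 1 library. Cells were grouped by clusters and marker genes, and the 10 proteoglycan genes were left out of the genes clustered on and of the marker lists. All 8 fibroblast markers (*Pdgfra*, *Col1a1* and others) had UMIs in the 23767 fibroblast-like cells of every mouse, as they also had in the endothelial cells. The 10 tenocyte markers, among them *Tnmd* and *Scx*, summed to 10081 to 13582 CPM (UMI counts scaled to the same total in each mouse and group) in the 1357 tenocyte-like cells, against 1111 to 2443 CPM in fibroblast-like cells as a whole. Both lists served to name these clusters, so these values describe the naming and do not test it.

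In the cell types of the LAM the family was chiefly a product of fibroblast-like cells, and *Dcn* was its most counted member in every named group but pericytes. *Dcn* was at 22637 ± 6816 CPM (SD, n = 6 mice) in fibroblast-like cells, *Bgn* at 2460 ± 361, *Lum* at 2115 ± 289, *Aspn* at 803 ± 328 and *Ogn* at 656 ± 120 CPM. *Fmod* was at 474 ± 238 CPM, *Prelp* at 297 ± 82.8, *Kera* at 38.9 ± 20.5, *Epyc* at 19.0 ± 16.8 and *Omd* at 18.3 ± 4.64 CPM. Under the study's upper limits on genes and mitochondrial UMIs, given with the processing below, *Fmod*, *Kera*, *Ogn* and *Omd* had higher means and *Bgn* a lower one. The 3' protocol counts 1 tag per transcript, so these levels do not scale with gene length, but capture can differ between genes. The cell groups are clusters of the same cells, and levels between groups are described without a test. The orders that follow are among named groups, and some unnamed clusters of fibroblast-like cells had higher means of *Dcn*, *Bgn*, *Lum*, *Omd* or *Epyc*.

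**Figure D1:**
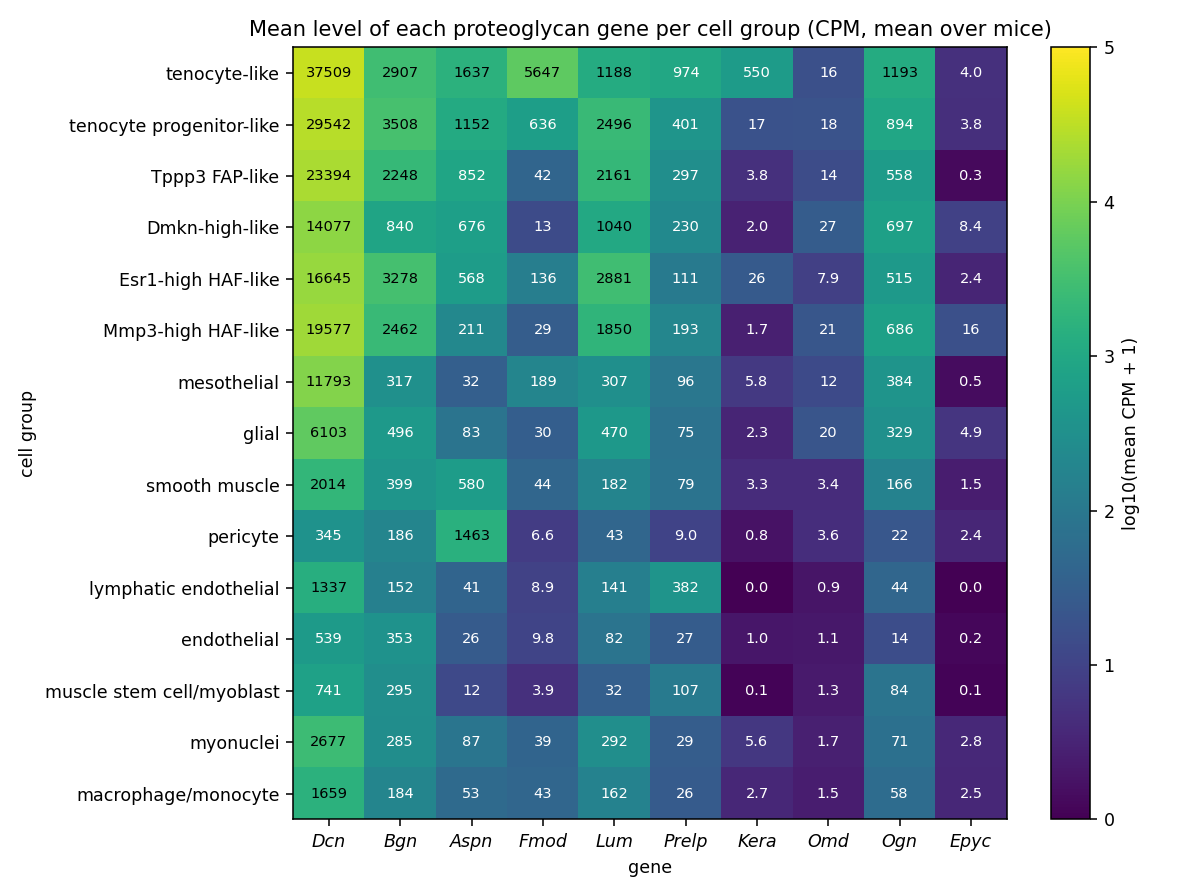
Mean level of the 10 genes (columns) in 15 cell groups (rows). Each cell prints the mean CPM over mice with at least 10 cells of the group, and color gives log10(mean CPM + 1). *Dcn* runs from 37509 CPM in tenocyte-like cells to 345 in pericytes, whereas *Fmod* and *Kera* are concentrated in the tenocyte-like row.

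*Dcn*, which encodes decorin, was highest among named groups in tenocyte-like cells at 37509 ± 7730 CPM (SD, n = 6). Tenocyte progenitor-like cells followed at 29542 ± 6003 and fibro-adipogenic progenitors named from a marker list with *Tppp3* (Tppp3 FAP-like) at 23394 ± 4139. *Mmp3*-high hernia-associated fibroblast-like (HAF-like) cells came next at 19577 ± 9390 CPM, from 13213 to 30361, over the 3 mice with at least 10 such cells. These were WT replicate 1 (46 cells) and Aromhum replicates 1 and 2 (678 and 1209 cells), so this place in the order rests on few mice of mixed genotype. The ranges over mice of each of these 4 groups overlapped with that of the next. Subgroup names rest on whole marker lists. *Tppp3* was higher in pericytes (835 CPM) than in Tppp3 FAP-like cells (784 CPM), and *Ccl11* was highest in smooth muscle cells. The other markers of that list were highest in Tppp3 FAP-like cells. Of the tenocyte progenitor markers, *Gas1* was highest in its own group, *Fxyd6* in glial cells and *Prg4*, *Angptl1*, *Tgfbi* and *Itgbl1* in tenocyte-like cells. Mesothelial cells stood at 11793 CPM and glial cells at 6103 CPM, and endothelial cells at 539 ± 330 CPM. *Dcn* UMIs were in 99.8% of fibroblast-like cells and in 38.6% of endothelial cells. After thinning every cell to 1000 UMIs the shares were 99.4% and 13.6%, and the unthinned medians over mice ran from 8655 to 12498 UMIs in fibroblast-like and from 3195 to 5326.5 in endothelial cells. Free RNA was not estimated, and the low levels in endothelial, glial and other cells outside the fibroblast-like group can hold it.

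*Bgn*, which encodes biglycan, had its highest means among named groups in tenocyte progenitor-like cells (3508 ± 580 CPM), *Esr1*-high HAF-like cells (3278 ± 643 CPM over 4 mice) and tenocyte-like cells (2907 ± 320 CPM), and these 3 ranges overlapped. *Aspn*, which encodes asporin, had a different order. Tenocyte-like cells (1637 ± 285 CPM) and pericytes (1463 ± 209 CPM) overlapped at the top, and smooth muscle cells were at 580 CPM. In pericytes *Aspn* was above *Dcn*, which stood at 345 CPM there.

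Among class II genes, *Fmod*, *Kera* and *Prelp* had their highest level in tenocyte-like cells. *Fmod* was at 5647 ± 577 CPM there, with 4759 to 6545 over the 6 mice, and at 636 ± 151 CPM in tenocyte progenitor-like cells, with no overlap between the 2 groups. Mesothelial cells came next among named groups at 189 ± 128 CPM, again without overlap. *Fmod* UMIs were seen in 98.9% of tenocyte-like cells and 1.77% of endothelial cells, and in 92.3% and 0.484% after thinning to 1000 UMIs. The median depth of tenocyte-like cells ran from 5051 to 9572 UMIs over the mice. *Kera*, which encodes keratocan, was at 550.03 ± 118 CPM in tenocyte-like cells and at 25.5 ± 35.2 in *Esr1*-high HAF-like cells, without overlap. *Prelp* was at 974 ± 182 CPM in tenocyte-like cells, above all other named groups. *Prelp* was also at 382 ± 33.6 CPM in lymphatic endothelial cells, where its range overlapped with that of tenocyte progenitor-like cells (401 ± 41.9 CPM) and lay above that of Tppp3 FAP-like cells (297 ± 22.2 CPM). In the other endothelial cells *Prelp* was at 27.1 ± 9.05 CPM.

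*Lum*, which encodes lumican, had an order of its own in class II. Its highest mean among named groups was in *Esr1*-high HAF-like cells (2881 ± 435 CPM over 4 mice, WT replicate 1 and all Aromhum mice), followed by tenocyte progenitor-like cells (2496 ± 301 CPM) and Tppp3 FAP-like cells (2161 ± 375 CPM), with overlap between neighbors. Tenocyte-like cells held 1188 ± 365 CPM of *Lum*. *Omd*, which encodes osteomodulin, a gene known from bone, stayed at or under 27.1 CPM in every named group. *Ogn*, which encodes osteoglycin (mimecan), was at 1193 ± 138 CPM in tenocyte-like cells and at 894 ± 149 CPM in tenocyte progenitor-like cells, without overlap.

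*Epyc*, which encodes epiphycan, a matrix protein known from growth plate cartilage, was highest in an unnamed cluster of fibroblast-like cells led by *Tspan8* and *Epyc*, so that its level there describes what the cluster is called after. In that cluster it was at 374 and 475 CPM in WT replicates 1 and 3 and at 251, 425 and 406 CPM in the Aromhum mice, and WT replicate 2 had only 6 such cells. The mean was 386 ± 83.9 CPM (SD, n = 5), and every named subgroup and every other named cell type averaged at or under 15.6 CPM. WT replicate 2 had 0 *Epyc* UMIs in 2599 fibroblast-like cells, which allows a level of up to 0.118 CPM (3 UMIs), for counting error only.

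Tenocyte-like cells were themselves of 3 kinds with different mixtures. In the cells led by *Chodl* and *Cilp2* (639 cells), *Dcn* was at 19959 ± 4191 CPM, *Aspn* at 2424 ± 628 and *Ogn* at 569 ± 103 (SD, n = 6). In the cells led by *Wif1* and *Comp* (533 cells), *Dcn* was at 53211 ± 7608 CPM, *Aspn* at 856 ± 188 and *Ogn* at 1682 ± 230. The ranges of *Dcn* did not overlap between these kinds. A smaller kind led by *Wif1* and *Chad* (185 cells) had the highest *Fmod*, 9261 ± 2030 CPM, and *Ogn* at 2213 ± 323 CPM. *Fmod* was at 4896 ± 1013 CPM in the *Chodl* kind and 5613 ± 927 in the *Wif1* and *Comp* kind.

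Over 16 named groups, the log2(mean CPM + 1) of *Dcn* ran most closely with that of *Ogn* among the family (Pearson r = 0.96) and of *Lum* (r = 0.94), and that of *Fmod* with *Kera* (r = 0.92). Among 6094 other genes, the 3 most like *Dcn* were *Itgbl1* (r = 0.97), *Fbln1* (0.97) and *Col14a1* (0.95). *Itgbl1* was among the markers that named the tenocyte progenitor-like cells. *Tnmd*, which encodes tenomodulin and was among the markers that named the tenocyte-like cells, was the gene most like both *Fmod* (r = 0.92) and *Kera* (r = 0.95). The next for *Fmod* were *Rxfp1* (0.91) and *Egfl6* (0.86), and for *Kera* they were *S100a5* and *Faim2* (0.91 each). The likeness was led by *Olfml3* (0.96), *Pcsk5* and *Tmem45a* (0.94 each) for *Bgn*, by *Clmp*, *Kcnk2* and *Pcsk5* (0.97 each) for *Lum*, and by *Il11ra1* (0.94), *Prrc1* and *Txndc5* (0.93 each) for *Ogn*. For *Aspn* it was led by *Col6a3* (0.95), *Il17d* (0.92) and *Fap* (0.91), and for *Prelp* by *Ptgfrn* (0.90), *Abi3bp* (0.88) and *Fndc1* (0.87). The groups share libraries and ambient RNA, and these correlations are descriptions over 16 points.

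Whether the family differs between WT and Aromhum fibroblast-like cells was asked with UMIs summed per mouse (edgeR quasi-likelihood test, Benjamini-Hochberg adjustment over 14090 genes). Aromhum cells held less *Dcn* relative to all their UMIs, and the other 9 genes did not pass the test. The 3 WT mice held 32916, 26227 and 26894 CPM of *Dcn* and the 3 Aromhum mice 16171, 15674 and 18119 CPM, here and in the tests that follow on the scale of edgeR's TMM size factors. All Aromhum mice lay below all WT mice. The log2 fold change was −0.78 (SE 0.19, adjusted p = 0.038). Thus 1 of the 10 genes was lower, where 6.95% of all genes tested were lower, and 0 were higher, where 8.52% of all genes were higher. No gene of the family had an unadjusted p under 0.05 in the higher direction and 5 had one in the lower direction, where 34.8% of all genes had one in either direction. DESeq2 called 0 higher and 5 lower, where it called 22.3% of all genes in either direction.

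**Figure D2:**
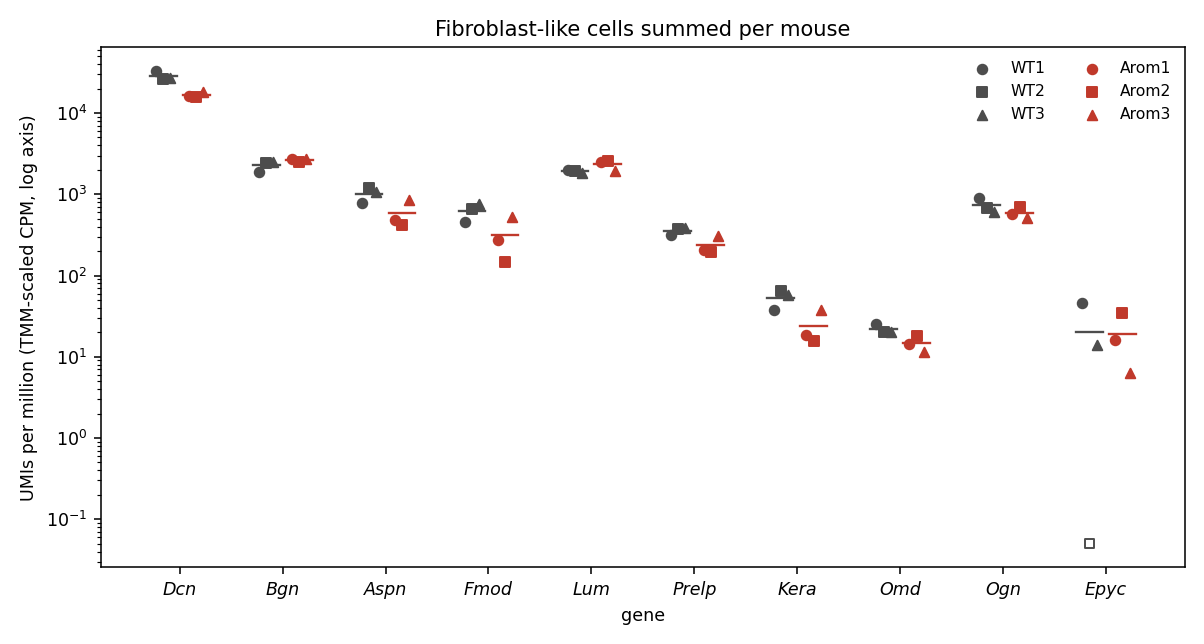
Level of each gene (TMM-scaled CPM, log axis) in fibroblast-like cells summed per mouse, with WT mice in gray and Aromhum mice in red. Short lines are means of 3 mice, symbols tell the mice apart, and the open symbol at 0.05 marks WT replicate 2, which had 0 *Epyc* UMIs. For *Dcn*, *Prelp*, *Kera* and *Omd* every red point lies below every gray point.

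*Prelp* was at 316, 370.4 and 379 CPM in WT and 208, 197 and 306 CPM in Aromhum mice (log2 fold change −0.58, SE 0.18, adjusted p = 0.0726). *Kera* was at 37.7, 63.7 and 58.2 CPM in WT and 18.5, 15.7 and 37.6 CPM in Aromhum mice (−1.16, SE 0.36, adjusted p = 0.0674). *Omd* was at 25.5, 20.03 and 20.4 CPM in WT and 14.5, 18.3 and 11.4 CPM in Aromhum mice (−0.58, SE 0.19, adjusted p = 0.0757). With *Dcn*, these made 4 of 10 genes for which every Aromhum mouse lay below every WT mouse, against 18.7% of all genes tested. For *Aspn* (−0.80, SE 0.30, adjusted p = 0.103) and *Fmod* (−1.0, SE 0.43, adjusted p = 0.151) the groups overlapped, with Aromhum replicate 3 at 851 and 521 CPM inside the WT range. *Ogn* (−0.31, SE 0.18), *Bgn* (0.23, SE 0.15), *Lum* (0.29, SE 0.15) and *Epyc* (−0.08, SE 1.26) had adjusted p values of 0.215 to 0.972. The median log2 fold change was −0.58 over the 10 genes and 0.01 over all genes. Marker lists also moved in these cells without overlap. The 8 fibroblast markers, which hold collagen genes, summed to 18845 to 22071 CPM in WT and 28804 to 36810 CPM in Aromhum mice, the 8 endothelial markers to 232 to 333 and 117 to 139.5 CPM and the 9 macrophage and monocyte markers to 15.7 to 18.3 and 23.2 to 53.9 CPM. The T cell markers (3.2 to 4.9 and 5.5 to 13.7 CPM) and the muscle stem cell and myoblast markers (27.6 to 36.1 and 23.5 to 25.4 CPM) did not overlap either. The part of these markers in the *Dcn* result was not tested.

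The *Dcn* call was near the threshold. It was lost with the replicate number as a block. Leaving out WT replicate 1, 2 or 3 (adjusted p = 0.0802, 0.0853 and 0.0976) or Aromhum replicate 1 or 2 (0.136 and 0.109) also lost it, while the log2 fold change stayed between −0.86 and −0.67. Under the upper limits on genes and mitochondrial UMIs the log2 fold change was −0.62 (adjusted p = 0.229). With limma on log2 values and equal weight of 4 named subgroups with at least 10 cells in every mouse (tenocyte-like, tenocyte progenitor-like, Tppp3 FAP-like and *Dmkn*-high-like), which leaves out both HAF-like groups and the unnamed clusters, the log2 fold change was −0.38 (adjusted p = 0.539). The subgroups were not equally filled: *Esr1*-high HAF-like cells, with *Dcn* at 16645 CPM over the 4 mice with at least 10 such cells, numbered 24, 7 and 4 in WT and 1439, 1817 and 573 in Aromhum mice.

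The balance among the genes was followed as the ratio of their UMIs to those of *Dcn*, summed per mouse. The ratio of *Bgn* to *Dcn* UMIs in fibroblast-like cells was 0.0568, 0.0920 and 0.0929 in WT and 0.170, 0.157 and 0.151 in Aromhum mice. The ratio of *Lum* to *Dcn* was 0.0598, 0.0738 and 0.0680 in WT and 0.155, 0.162 and 0.107 in Aromhum mice. Neither pair of groups overlapped. The means were 0.0806 ± 0.0206 and 0.159 ± 0.00946 for *Bgn* and 0.0672 ± 0.00704 and 0.141 ± 0.0303 for *Lum* (SD, n = 3, 2-sided exact permutation p = 0.1 each, the lowest that 3 mice against 3 allow). The ratio of *Fmod* to *Dcn* was 0.0225 ± 0.00756 in WT and 0.0184 ± 0.00975 in Aromhum mice, with overlapping groups (exact permutation p = 0.7). The ratio of *Ogn* to *Dcn* was 0.0270, 0.0260 and 0.0228 in WT and 0.0350, 0.0441 and 0.0278 in Aromhum mice, without overlap (exact permutation p = 0.1), although the level of *Ogn* was not higher in Aromhum mice. The ratios of *Aspn*, *Prelp*, *Kera*, *Omd* and *Epyc* to *Dcn* overlapped between the genotypes. Every ratio over *Dcn* carries the lower *Dcn* of Aromhum mice in it, and the levels of *Bgn* and *Lum* were themselves not called in these cells. The share of all genes whose ratio to *Dcn* would separate the genotypes was not computed.

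Genes of the matrix that the proteoglycans bind, of their chains and of their turnover were counted in the same cells from fixed lists. Beside each count stands the share of all genes, 8.52% higher and 6.95% lower. Of 18 fibril collagens and partners, 7 were higher and 0 lower in Aromhum mice, with a median log2 fold change of 0.25 against 0.01 for all genes. *Col3a1* rose from 5086 ± 1028 to 10337 ± 2133 CPM and *Col1a2* from 4818 ± 429 to 9038 ± 1678 CPM (SD, n = 3), and *Col1a1*, *Col5a1*, *Col5a2* and *Col12a1* rose too. *Col1a1*, *Col1a2* and *Col3a1* were also among the markers that named fibroblast-like cells. Of 11 genes on a list of proteases known to cut these proteoglycans, 6 were higher and 0 lower (median 0.74). The list also names *Pcolce*, whose product enhances a protease and is not one itself. Those higher included *Htra1* (log2 fold change 1.15, SE 0.20), *Mmp2* (0.74, SE 0.17), *Adamts1* (0.61, SE 0.14) and *Mmp9* (0.0509 ± 0.0882 CPM in WT and 2.80 ± 2.04 CPM in Aromhum mice). In tenocyte-like, tenocyte progenitor-like, Tppp3 FAP-like and *Dmkn*-high-like cells, 3, 1, 7 and 0 of the collagen list were higher. Of the protease list 0, 1, 2 and 0 were, where 0.304%, 0.626%, 2.28% and 0.484% of all genes were higher. Genes called in fibroblast-like cells ran from 9 to 4387 without 1 mouse, and almost none were called under the upper limits. The part of subgroup numbers in the list calls was not tested.

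Of 23 enzymes that build the glycosaminoglycan chains, 5 were higher and 2 lower (median 0.26). *Chsy1* and *Chpf2*, which extend chondroitin chains, had log2 fold changes of 1.08 (SE 0.15) and 0.94 (SE 0.09), *Chst11*, a chondroitin sulfotransferase, had 2.61 (SE 0.53), and *Dsel*, which makes dermatan from chondroitin, had 0.90 (SE 0.19). *Ust*, an uronyl sulfotransferase, fell by 0.55 on the log2 scale (SE 0.13). Of 14 TGF-β ligands, carriers and receptors, 2 were higher (*Tgfbr2*, log2 fold change 1.21, and *Tgfb1*, 0.48) and 2 lower, among them *Bmp4* (−1.34), with a median of −0.13. Of 10 receptors known to bind these proteoglycans 1 was higher and 2 lower, the latter being *Tlr2* (−0.49) and *Met* (−0.90), with a median of −0.06. The counts of these 2 short lists lie within 2 genes of what the shares of all genes give. Of 7 other leucine-rich repeat genes of the matrix, 0 were called in either direction by edgeR (median −0.58, 0 higher and 2 lower at an unadjusted p under 0.05), and *Ecm2*, the neighbor of *Aspn*, named after its values were seen, was at 186 CPM in WT and 69.6 CPM in Aromhum mice (adjusted p = 0.0559).

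In tenocyte-like cells none of the 9 genes that could be tested was called by edgeR, where 0.304% of genes were called higher and 0.234% lower, or by DESeq2. *Epyc* did not pass the filter on low counts. *Fmod* was at 5821, 5663 and 6143 CPM in WT and 5644, 4494 and 6544 CPM in Aromhum mice, and the groups overlapped (log2 fold change −0.08, SE 0.16, adjusted p = 0.848). *Dcn* was at 50826, 43614 and 39880 CPM in WT and 30344, 26741 and 37138 CPM in Aromhum mice, with every Aromhum mouse below every WT mouse (−0.51, SE 0.17, adjusted p = 0.18). *Aspn* (−0.47, SE 0.14, adjusted p = 0.144) and *Kera* (−0.43, SE 0.18, adjusted p = 0.254) also had groups that did not overlap, and 11.7% of all genes had every Aromhum mouse below every WT mouse. These 3 were the genes with an unadjusted p under 0.05, as were 16.6% of all genes in either direction. The other genes, *Bgn* (0.11), *Lum* (0.18), *Ogn* (−0.15), *Prelp* (−0.32) and *Omd* (−0.63), had overlapping groups and adjusted p values of 0.337 to 0.79. A call was made for *Dcn* without Aromhum replicate 3 (adjusted p = 0.0497) and for *Aspn* with the replicate number as a block (adjusted p = 0.0384). Some marker lists separated the genotypes here. The 8 fibroblast markers summed to 23465 to 27367 CPM in WT and 36115 to 38290 CPM in Aromhum mice. The 8 smooth muscle markers summed to 263 to 374 and 451 to 1331 CPM. Endothelial markers summed to 41.6 to 77.8 and 16.3 to 39.6 CPM. The tenocyte markers overlapped, and the part of these markers was not tested.

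Outside the tenocyte-like cells *Fmod* was lower in Aromhum fibroblast-like cells. It was at 198, 264 and 263 CPM in WT and 91.2, 79.8 and 120.0 CPM in Aromhum mice, without overlap (log2 fold change −1.32, SE 0.19, adjusted p = 0.0138, a comparison added after seeing the data). Of all genes, 19.5% had every Aromhum mouse below every WT mouse. *Dcn* (−0.79, SE 0.19, adjusted p = 0.0351) and *Prelp* (−0.53, SE 0.13, adjusted p = 0.0408) were also called, so 3 of 10 genes were lower where 7.89% of all genes were. The difference between the 2 cell groups was tested itself as a genotype by cell type interaction. *Fmod* was called (log2 difference 1.25, SE 0.15, adjusted p = 0.0041, tenocyte-like minus other fibroblast-like cells), 1 of 10 genes of the family where 0.415% of genes were called. The call was lost without WT replicate 2 (1.15, adjusted p = 0.0581), with limma voom (1.24, adjusted p = 0.098) and under the upper limits (1.27, adjusted p = 0.228).

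**Figure D3:**
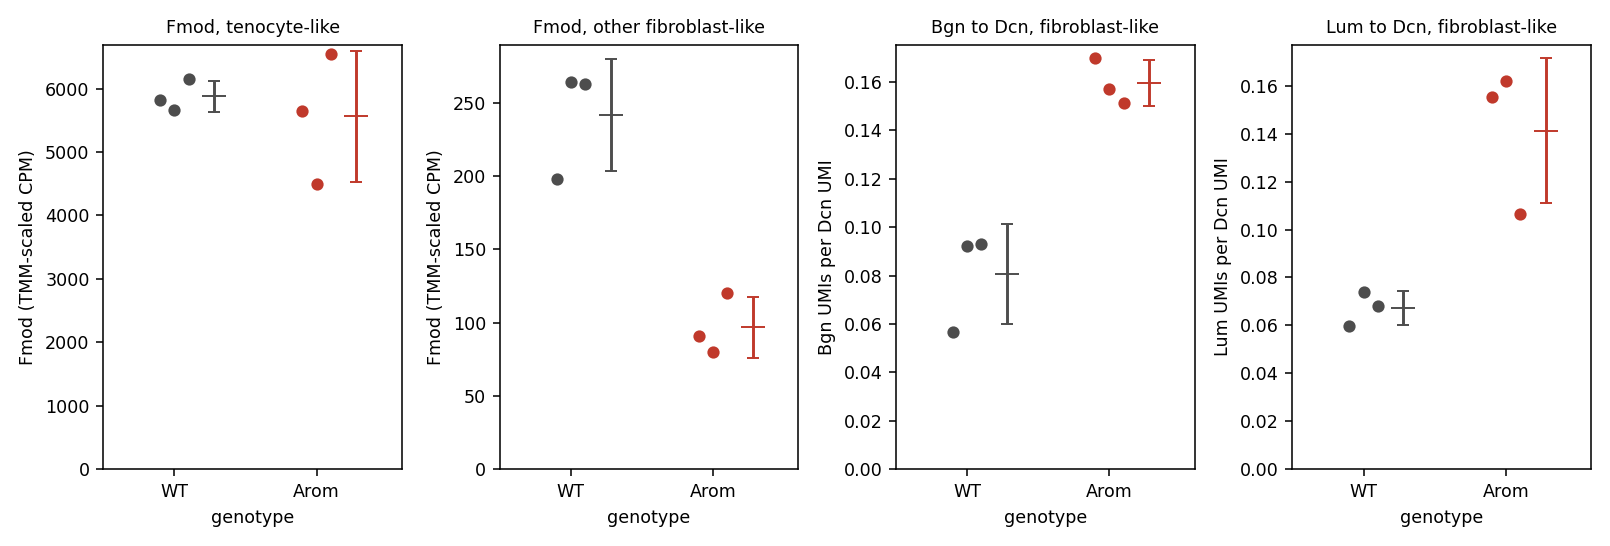
From left, *Fmod* in tenocyte-like cells and in the other fibroblast-like cells (TMM-scaled CPM), and the ratios of *Bgn* and of *Lum* to *Dcn* UMIs in fibroblast-like cells, by genotype. Points are mice (n = 3 each) and bars give the mean ± SD. *Fmod* overlaps between genotypes on the first axis (4494 to 6544 CPM) and does not on the second (79.8 to 264 CPM), and both ratios are higher in all Aromhum mice.

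The subgroups of those other cells had different levels and different numbers. Tenocyte progenitor-like cells, the subgroup with the next highest *Fmod*, numbered 821, 483 and 340 in WT and 124, 208 and 359 in Aromhum mice. Within them *Fmod* was at 520, 832 and 805 CPM in WT and 548, 514 and 603 CPM in Aromhum mice, and the groups overlapped (log2 fold change −0.37, SE 0.18, adjusted p = 0.402). In Tppp3 FAP-like cells the log2 fold change of *Fmod* was −0.01 (SE 0.29). Over all fibroblast-like cells, tenocyte-like cells included, where the summed value was −1.0, *Fmod* was at 0.02 with limma and equal weight of the 4 subgroups named above (adjusted p = 0.972).

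**Figure D4:**
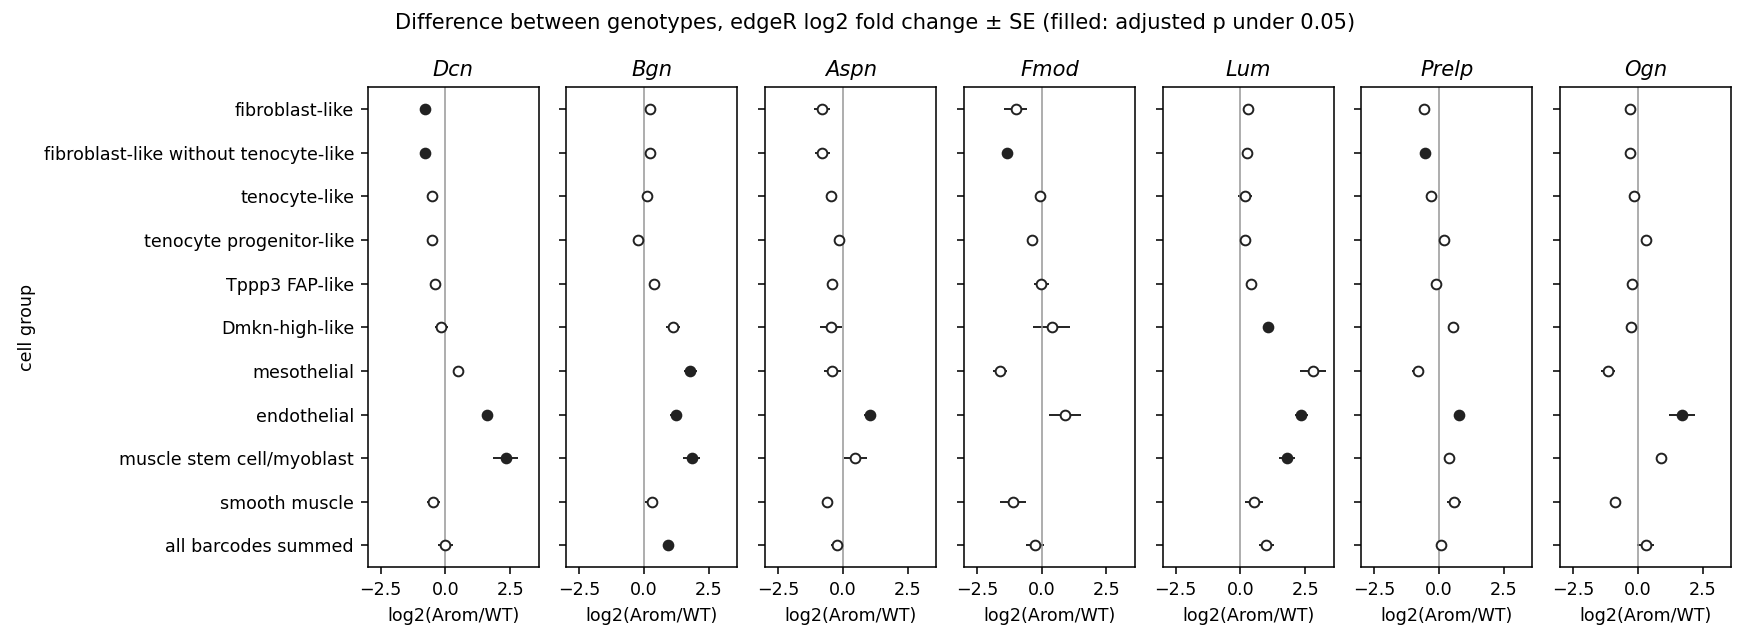
edgeR log2 fold change (Aromhum over WT) of 7 genes in 11 cell groups, with bars of ± 1 SE derived from the F statistic of the test. Filled points have an adjusted p under 0.05. *Dcn* and *Fmod* lie left of 0 in fibroblast-like cells, while the filled points of endothelial and muscle stem cell/myoblast cells lie right of 0.

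In 18 other groups with at least 20 cells in every mouse, 137 tests of family members gave 11 calls of a gene higher and 1 lower in Aromhum mice, where 1.5% of all tests of genes gave a call higher and 1.18% a call lower, and differences between these groups were not tested. Endothelial cells had most of them. There *Lum* rose from 21.0, 36.6 and 21.6 to 148, 161 and 97.4 CPM (log2 fold change 2.35, SE 0.26, adjusted p = 0.0019), *Dcn* from 312, 259 and 212 to 841, 917 and 651 CPM (1.62, SE 0.18, adjusted p = 0.0019), and *Bgn* from 195, 145 and 290 to 551, 408 and 517 CPM (1.23, SE 0.24, adjusted p = 0.0106). No Aromhum mouse overlapped with WT for these 3, where 20.4% of all genes had every Aromhum mouse above every WT mouse. *Aspn* (1.03, SE 0.22), *Prelp* (0.78, SE 0.16) and *Ogn* (1.70, SE 0.50) were higher as well, making 6 of 9 genes tested where 11.1% of all genes were higher. *Fmod* (0.90), *Kera* (−0.68) and *Omd* (−0.48) did not pass (adjusted p = 0.337 to 0.429).

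Levels of markers of other cells moved with this result. The 8 fibroblast markers, all with UMIs in each mouse, summed to 260 to 319 CPM in WT and 1347 to 3642 CPM in Aromhum endothelial cells. The 10 tenocyte markers summed to 19.4 to 34.7 and 91.7 to 105 CPM. The 8 endothelial markers summed to 7010 to 7485 CPM in WT and 5085 to 5928 CPM in Aromhum mice. The ratio of *Bgn* to *Dcn* was 0.852 ± 0.449 in WT and 0.631 ± 0.175 in Aromhum endothelial cells (SD, n = 3), above the ratios of fibroblast-like cells in both genotypes. The ratio of *Lum* to *Dcn* was 0.104 ± 0.0370 and 0.167 ± 0.0149. The part of these markers in the endothelial calls was not tested. *Bgn*, *Lum* and *Prelp* passed in all 13 alternatives. Under the upper limits the log2 fold changes of *Dcn*, *Aspn* and *Ogn* were 0.25, −0.08 and 0.54 and not called, *Aspn* was not called without marked doublets (0.59) or without WT replicate 3 (0.97, adjusted p = 0.0534), and *Ogn* was not called with DESeq2 (adjusted p = 0.0672) or without WT replicate 2 or 3 or Aromhum replicate 1 or 2 (0.119 to 0.148).

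In muscle stem cells and myoblasts, 3 of 6 genes tested were higher where 0.905% of all genes were. *Dcn* was at 380, 112 and 237 CPM in WT and 1394, 1668 and 564 CPM in Aromhum mice (log2 fold change 2.32, SE 0.47, adjusted p = 0.0481), *Bgn* went from a mean of 127 to 453 CPM (1.84, SE 0.32, adjusted p = 0.0386) and *Lum* from 14.4 to 48.4 CPM (1.81, SE 0.32, adjusted p = 0.0386). The groups did not overlap for these 3, where 13% of all genes had every Aromhum mouse above every WT mouse. The 8 fibroblast markers summed to 503 to 699 CPM in WT and 863 to 2379 CPM in Aromhum mice there. The 8 smooth muscle markers summed to 334 to 428 and 845 to 1341 CPM and the 8 endothelial markers to 784 to 1110 and 177 to 563 CPM, again without overlap. The part of these markers in the result was not tested. With the limit on mitochondrial UMIs alone *Dcn* and *Lum* turned to −0.38 and −0.26 and *Bgn* dropped to 0.81 (adjusted p = 0.48), and all 3 calls were lost without WT replicate 2 or 3 or Aromhum replicate 1 or 2 (adjusted p = 0.105 to 0.208), *Bgn* also without WT replicate 1 (0.0723) and *Lum* under the upper limits (0.134).

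Mesothelial cells, which line the body cavity, held more *Bgn* in Aromhum mice. *Bgn* was at 145, 130.0 and 161 CPM in WT and 678, 486 and 335 CPM in Aromhum mice, without overlap (log2 fold change 1.78, SE 0.25, adjusted p = 0.0398), 1 of 8 genes tested where 0.248% of all genes were higher. Of all genes, 13.4% had every Aromhum mouse above every WT mouse. At an unadjusted edgeR p under 0.05, 3 of the 8 genes were higher and 4 lower, where 20.5% of all genes had one in either direction. The median log2 fold change of the 8 genes was −0.62. *Lum* was at 128, 58.6 and 49.0 CPM in WT and 711, 716 and 234 CPM in Aromhum mice (2.81, SE 0.50, adjusted p = 0.0594), and *Fmod* at 310.4, 179 and 354 and at 72.2, 85.3 and 116 CPM (−1.62, SE 0.27, adjusted p = 0.0594), and neither passed. *Bgn* was not called without any 1 of WT replicates 1, 2 and 3 and Aromhum replicates 1 and 2 (adjusted p = 0.115 to 0.182) or with the limit on mitochondrial UMIs (0.052). The fibroblast markers in these cells summed to 13325 to 16553 CPM in WT and 6515 to 16181 CPM in Aromhum mice, and their part in the result was not tested.

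Within fibroblast-like subgroups, *Lum* was higher in *Dmkn*-high-like cells, at 673, 739 and 626 CPM in WT and 1599.5, 1530.2 and 1103 CPM in Aromhum mice (log2 fold change 1.05, SE 0.18, adjusted p = 0.0437), 1 of 9 genes tested where 0.484% of all genes were higher. This subgroup was made of different clusters in the 2 genotypes. The 3 clusters in it held 580, 4 and 86 cells in WT replicate 1, 194, 0 and 53 in WT replicate 2 and 106, 2 and 26 in WT replicate 3, against 308, 443 and 177, 358, 1029 and 261, and 442, 14 and 92 in the Aromhum mice. Their mean *Lum* levels were 960 CPM (n = 6), 1434 CPM (n = 3) and 1243 CPM (n = 6), and the part of this make-up in the call was not tested. *Kera* was lower in an unnamed cluster of 837 cells led by *Fabp4* and *Selp*. This cluster fell among the fibroblast-like cells, but *Cldn5*, *Cdh5* and *Egfl7*, genes of endothelial cells, were among its 10 leading genes and no marker of a fibroblast-like subgroup was, so its leading genes go against a fibroblast label. *Kera* was at 22.8, 27.3 and 46.0 CPM in WT and 9.46, 14.0 and 14.4 CPM in Aromhum mice (−1.31, SE 0.30, adjusted p = 0.0438), 1 of 10 genes where 1.76% were lower. The groups did not overlap in either case. Both calls were lost without any 1 of WT replicates 1, 2 and 3 and Aromhum replicates 1 and 2 (adjusted p = 0.107 to 0.204 for *Lum* and 0.0524 to 0.172 for *Kera*), and that of *Lum* also under the upper limits (0.157), with the mitochondrial limit (0.105) and without marked doublets (0.059). The *Kera* result of the unnamed cluster had no value under these cell filters, so it was not checked against them. The other 13 groups, tenocyte progenitor-like and Tppp3 FAP-like cells among them, had no call for the family by edgeR, where 0% to 2.28% of all genes were called in each direction. Of 95 tests of family members in them, 13 had an unadjusted p under 0.05 in the higher and 13 in the lower direction, where 12% of all tests of genes had one in either direction. Over all 18 groups DESeq2 called 17 members higher and 8 lower, where it called 3.99% of all genes in either direction.

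Summed over all kept barcodes of a mouse, *Bgn* was the gene called. It was at 1047, 951 and 841 CPM in WT and 1898, 1791 and 1676 CPM in Aromhum mice, without overlap (log2 fold change 0.92, SE 0.12, adjusted p = 0.0183), 1 of 10 genes higher where 12.3% of all genes were. DESeq2 called 2 higher, where it called 34% of all genes in either direction. None was lower by edgeR or DESeq2, or at an unadjusted p under 0.05 in that direction, where 11.2% of all genes were lower. *Lum* was at 1044, 733 and 538 CPM in WT and 1688, 1838 and 1134 CPM in Aromhum mice, without overlap (1.01, SE 0.29, adjusted p = 0.0538). Over all genes, 23.9% had every Aromhum mouse above every WT mouse. *Dcn* was at 17758, 10248 and 8263 CPM in WT and 11780, 12725 and 11755 CPM in Aromhum mice, with means of 12090 and 12086 CPM, and the groups overlapped. *Ogn* (0.30), *Epyc* (0.43), *Prelp* (0.06), *Omd* (−0.16), *Aspn* (−0.22), *Fmod* (−0.25) and *Kera* (−0.43) also overlapped and did not pass. Fibroblast-like cells were 40.1%, 27.1% and 23.1% of WT and 44.6%, 53.7% and 43.1% of Aromhum barcodes, without overlap (exact permutation p = 0.1). In such a sum, more cells of a type and more RNA per cell cannot be told apart. The *Bgn* call was lost without WT replicate 2 or 3 or Aromhum replicate 1 or 2 (adjusted p = 0.0628 to 0.0775) and under the upper limits (0.16, adjusted p = 0.696).

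The cells that held the family's UMIs were asked per mouse. Fibroblast-like cells held 94.4%, 89.3% and 87.1% of the UMIs of the 10 genes in WT and 87.2%, 84.5% and 87.1% in Aromhum mice. The means were 90.3% ± 3.76 and 86.3% ± 1.55 (SD, n = 3), and the difference of −4.01 percentage points was within the overlap of the groups (exact permutation p = 0.3). Mesothelial cells held 1.29%, 2.65% and 1.42% in WT and 7.80%, 11.4% and 8.51% in Aromhum mice, without overlap (exact permutation p = 0.1). They were also a larger share of the barcodes, 1.56%, 1.72% and 0.893% in WT and 5.72%, 7.62% and 7.89% in Aromhum mice, so that the share of UMIs moved with the share of cells. For *Fmod* alone, tenocyte-like cells held 59.6% ± 4.42 in WT and 58.8% ± 16.5 in Aromhum mice (exact permutation p = 0.9). For *Kera* they held 77.4% ± 6.87 and 64.2% ± 17.9 (exact permutation p = 0.4).

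**Figure D5:**
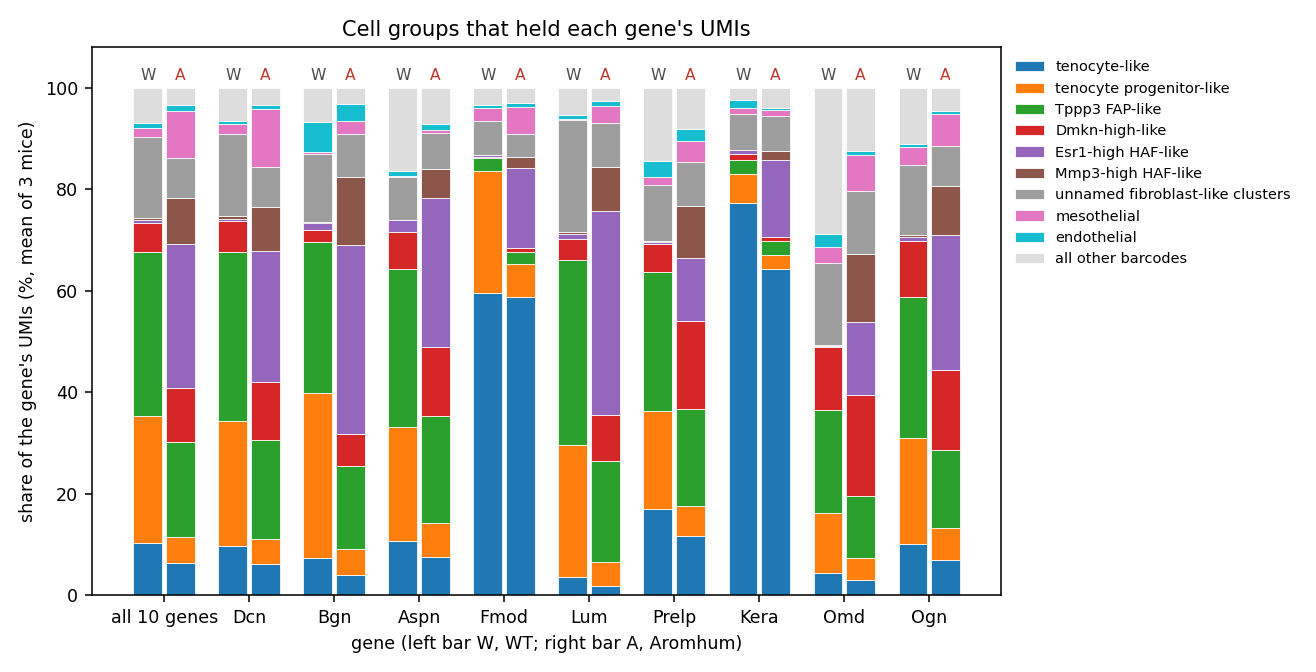
Share of each gene's UMIs (%, mean of 3 mice) held by each cell group, for WT (left bars) and Aromhum mice (right bars). Tenocyte-like cells hold 59.6% and 58.8% of *Fmod*, while the HAF-like groups, which had few WT cells and whose defining genes differ between genotypes, are a description only.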

How the data were processed

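Single-cell RNA-Seq of digested LAM was done by the authors on the 10x Genomics 3' platform, 1 library per mouse, with reads mapped to mm10 by Cell Ranger 3.0.2 per the labels. The deposited table holds whole-number UMI counts per gene and barcode, not normalized, for all 6 mice, and how its genes were filtered is not given in the sources used here. Barcodes with at least 200 genes and 1000 UMIs were kept. The study's upper limits (2500 genes, 5% mitochondrial UMIs) left 18852 barcodes and were used as an alternative. Counts were log-normalized to 10000 per cell, and 2000 variable genes, 30 principal components, 20 neighbors and Leiden resolution 0.8 gave 33 clusters of all cells and 21 of fibroblast-like cells (Python 3.11.15, scanpy 1.11.5, scikit-learn 1.9.0, leidenalg 0.10.2). Clusters were named where at least 3 markers of a list were in at least 10% of cells the score passed 0.5, and the 10 leading genes held no more markers of another list than of its own (for subgroups, at least 1 of its own). A cluster with UMI counts far under its mouse's median and no own marker among them stayed unnamed. The 10 genes were in neither the clustering nor the marker lists, but could stand among a cluster's leading genes. Barcodes with the highest Scrublet scores, 0.8% per 1000 barcodes, were marked as doublets and left out in an alternative only. The total of 64958237 to 111826460 UMIs per mouse sets the precision, and floors and intervals cover counting error only.

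Levels between cell groups are CPM of summed UMIs for mice with at least 10 cells. Genotypes were compared on UMIs summed per mouse and group with at least 20 cells in each mouse, by the quasi-likelihood test of edgeR 4.0.16 (R 4.3.3, TMM size factors, low-count filter filterByExpr, Benjamini-Hochberg adjustment over all genes tested, threshold 0.05, mouse as replicate). A genotype by cell type term, with each mouse as a block, tested tenocyte-like against other fibroblast-like cells. The SE printed with edgeR values was derived as the absolute log2 fold change divided by the square root of the test's F statistic. Shares and ratios were compared by 2-sided exact permutation tests, which cannot go below p = 0.1 with 3 mice against 3. Alternatives were DESeq2 1.42.0, limma 3.58.1, other size factors, no filter, a replicate block, other cell filters and resolutions, limma with equal weight of 4 subgroups (HAF-like cells and unnamed clusters left out), and leaving out each mouse. The edgeR step was tested on simulated data. The rule was to name all 10 genes in each comparison; in the smaller cell groups those that passed are named and the rest stand as counts. Other genes were named by their likeness over cell groups (those reaching 50 CPM) or, from lists of related genes, the 20 smallest p values among those called. The members and lists were chosen with earlier results of these data known. Promoters came from RefSeq (GRCm38.p6) and positions from GENCODE vM21.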

Additional observations from a re-analysis of the deposited data

Results flagged for a closer look

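The genotype difference of *Fmod* in tenocyte-like cells and in the other fibroblast-like cells differed by 1.25 on the log2 scale (edgeR interaction test, SE 0.15, adjusted p = 0.0041), which is a difference between cell groups under the same contrast. The log2 fold changes were −0.08 in tenocyte-like cells and −1.32 in the others. *Fmod* within tenocyte progenitor-like cells changed by −0.37 (SE 0.18, adjusted p = 0.402), and the part of subgroup numbers in the difference was not tested.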

How the results depend on the processing

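RLE size factors changed no call of the 10 genes in fibroblast-like cells. In fibroblast-like cells, 1 of the 10 genes was lower in the main test, against 5 with DESeq2, 2 with the replicate block, 3 without tenocyte-like cells (added after seeing the data), 0 under the upper limits and 0 with equal weight of 4 subgroups (limma, without HAF-like cells and unnamed clusters), and 0 to 5 without 1 mouse. All genes called numbered 2179, against 1 under the upper limits, 403 with equal weight and 9 to 4387 without 1 mouse. *Dcn* was not called with the replicate block (−0.78, adjusted p = 0.0507). *Epyc* turned to 0.19 (replicate block), 0.41 (upper limits) and 0.80 (equal weight) on the log2 scale, and ran from −0.85 to 1.53 without 1 mouse. *Bgn* turned to −0.083 under the upper limits, and *Prelp* to 0.082 and *Fmod* to 0.020 with equal weight. Without Aromhum replicate 3, *Prelp* (−0.82, adjusted p = 0.0043), *Fmod* (−1.59, 0.011), *Kera* (−1.65, 0.0036) and *Aspn* (−1.20, 0.0065) were called.

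In tenocyte-like cells 46 genes were called, against 195 with DESeq2, 363 without the filter, 404 with the replicate block, 0 under the upper limits, 91 at Leiden resolution 0.4 and 2 to 436 without 1 mouse. Members lower were 1 with the replicate block (*Aspn*, −0.47, adjusted p = 0.0384) and 0 to 1 without 1 mouse, where *Fmod* ran from −0.21 to 0.060, *Lum* from −0.12 to 0.48 and *Ogn* from −0.23 to 0.0011. Over all barcodes 3607 genes were called, against 0 under the upper limits, 2397 with the mitochondrial limit and 0 to 4819 without 1 mouse. Of the 10 genes, 2 were higher with DESeq2 (which called 34% of all genes) and 2 with the replicate block (4020 of all genes called), 0 under the upper limits, and without 1 mouse 0 to 2 were higher and 0 to 1 lower. There *Dcn* turned to 0.079 with the replicate block, *Prelp* to −0.10 (upper limits) and −0.11 (mitochondrial limit) and *Ogn* to −0.14 (upper limits). Without 1 mouse *Dcn* ran from −0.21 to 0.39, *Prelp* from −0.088 to 0.18, *Fmod* from −0.70 to 0.042, *Epyc* from −0.42 to 2.70 and *Omd* from −0.33 to 0.13.

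The interaction called 52 genes, against 3 with limma voom, 0 under the upper limits and 8 to 384 without 1 mouse, and it called 0 of the 10 genes with limma voom, 0 under the upper limits and 0 to 1 without 1 mouse. *Epyc* turned to −1.23 with limma voom. Under the upper limits *Bgn* turned to 0.12, *Lum* to 0.11, *Kera* to −0.29 and *Omd* to −0.68. Without 1 mouse *Bgn* ran from −0.25 to 0.083, *Lum* from −0.28 to 0.20, *Kera* from −0.10 to 0.40, *Omd* from −0.33 to 0.42 and *Ogn* from −0.019 to 0.42. In the other groups, all genes called numbered 4013, against 5975 with DESeq2, 6317 without the filter, 8713 with the replicate block, 1005 under the upper limits, 3085 with the mitochondrial limit and 1174 to 10528 without 1 mouse, and along with them the 11 calls of members higher became 17 with DESeq2, 18 without the filter, 18 with the replicate block, 5 under the upper limits, 7 with the mitochondrial limit and 4 to 20 without 1 mouse. The 1 call lower became 8, 5, 7 and 0 under the first 4 of these, 2 without marked doublets and 0 to 11 without 1 mouse. *Aspn* in endothelial cells turned to −0.084 under the upper limits, and *Dcn* and *Lum* in muscle stem cells and myoblasts to −0.38 and −0.26 with the mitochondrial limit. Mesothelial cells were too few under the upper limits to give a value.

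Thinning to 1000 UMIs lowered the shares of fibroblast-like cells with a UMI to 99.4% (*Dcn*), 74.5% (*Bgn*), 70.5% (*Lum*), 42.4% (*Aspn*), 40.6% (*Ogn*), 24.3% (*Prelp*), 14.5% (*Fmod*), 3.00% (*Kera*), 1.77% (*Omd*) and 1.27% (*Epyc*). Under the upper limits mean levels were 1934 CPM (*Bgn*), 725 (*Fmod*), 807 (*Ogn*), 68.5 (*Kera*) and 25.9 (*Omd*). The difference in the share of the family's UMIs held by fibroblast-like cells ran from −5.60 to −1.94 percentage points without 1 mouse. Littermate pairs shared a date, but the replicate numbers are not tied to dates in the sources used here and could not be shown to pair the mice. Same-numbered mice correlated at 0.17, −0.12 and 0.14 in fibroblast-like cells, and not every mouse correlated best with its own number. Over all barcodes they correlated at 0.22, −0.02 and 0.28, and there replicates 1 and 3 correlated best with their own number while replicate 2 did not. The causes of these changes were not tested.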

Other observations

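Several unnamed clusters held levels that no named group reached, and they are described with no test. The cluster led by *Apod* and *6030408B16Rik* (412 fibroblast-like cells) had *Lum* at 6320 ± 730.5 CPM (SD, n = 6), with *Dcn* at 43531 ± 8130 CPM. Its *Lum* lay above that of every named group. The cluster led by *Sfrp5* and *Lypd2* (468 cells) had *Omd* at 204 ± 62.3 CPM, with *Dcn* at 17023 ± 1687 CPM, and its lowest mouse (102 CPM of *Omd*) was above the highest mouse of any named group (34.8 CPM, in *Dmkn*-high-like cells). *Omd* was at 47.5 ± 15.7 CPM in the cluster led by *Gdf10* and *Cst3* and at 57.6 ± 17.1 CPM (n = 5) in that led by *Tspan8* and *Epyc*, where *Lum* stood at 2909 ± 334 CPM.

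Thinning showed how far detection followed depth. In fibroblast-like cells UMIs of *Dcn* were in 99.8% of cells, of *Bgn* in 93.7%, of *Lum* in 93.3%, of *Ogn* in 82.0%, of *Aspn* in 81.0% and of *Prelp* in 76.0%. *Fmod* UMIs were in 25.0%, *Omd* in 14.8%, *Kera* in 6.36% and *Epyc* in 3.16% of them.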
